A study of Gallus gallus with 6 samples.

Results

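Cytosolic ribosomal protein genes were followed in RNA-seq libraries of cloacal skin from Ma-Huang chickens, a commercial pure-line broiler with golden skin. They were taken as all genes in the files whose chicken gene symbol is RPL or RPS with a number and at most a short suffix of A, X, L or digits, or is RPLP0, RPLP1, RPLP2 or RPSA. The rule found 70 of the 18315 genes in the files. RPL and RPLP genes, which encode proteins of the large subunit, numbered 44, and RPS genes, of the small subunit, numbered 26. The 6 birds were of one age and one feeding regime, and an 8 mm piece of skin was taken from each and freed of subcutaneous fat. The 3 s_light birds (s_light6575, s_light6971 and s_light8275) had low yellowness around the cloaca, and the 3 s_deep birds (s_deep6402, s_deep6403 and s_deep7858) had high yellowness. No treatment separated the groups, and the labels do not give the sex of a bird. P-values from limma set the group difference against the spread between birds, moderated towards that of genes at a similar level.

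The ribosome joins amino acids in the order read from mRNA, and each ribosome carries single copies of nearly all of its proteins, while the P-stalk holds several copies of RPLP1 and RPLP2. Most ribosomal protein mRNAs are abundant in cells. In vertebrates these mRNAs begin with a short stretch of pyrimidines, through which growth signalling by mTOR and LARP1 sets their translation as a group. In skin, dividing basal keratinocytes and collagen-secreting fibroblasts are cells with high protein synthesis.

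Levels are given in FPKM, reads per exon length and per library size, which adjusts for gene length and library size only. Library totals lay between 471488 and 487585 FPKM in s_light and between 472540 and 488777 FPKM in s_deep, and read depth cannot be recovered from them. Genes on W, the chromosome found only in female birds, set a pair of libraries apart. Averaged over 5 W-linked genes, log2(FPKM + 0.1) was between 7.06 and 7.40 in s_light and 6.85 in s_deep7858, but -0.57 in s_deep6402 and -0.67 in s_deep6403. Of 10 listed keratinocyte markers of the labelled tissue, 7 were found. Their summed level was between 1672 and 2702 FPKM in s_light and between 2125 and 2446 FPKM in s_deep. KRT5 and KRT14 were the highest by mean, while KRT75 stayed at or below 3.06 FPKM in every library.

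Ribosomal protein genes were among the most abundant mRNAs of the skin. They held 54 of the 100 highest places by mean FPKM, and their median level was 1140 FPKM, against 8.41 FPKM over the 15900 genes tested. Of the 70 genes, 60 lay between 500 and 2000 FPKM, 4 above 2000 FPKM and 6 below 500 FPKM. The median was 1111 FPKM for RPL and RPLP genes and 1166 FPKM for RPS genes. The plot of the members by library shows this narrow band, with a few genes far below it.

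**Figure D1:**
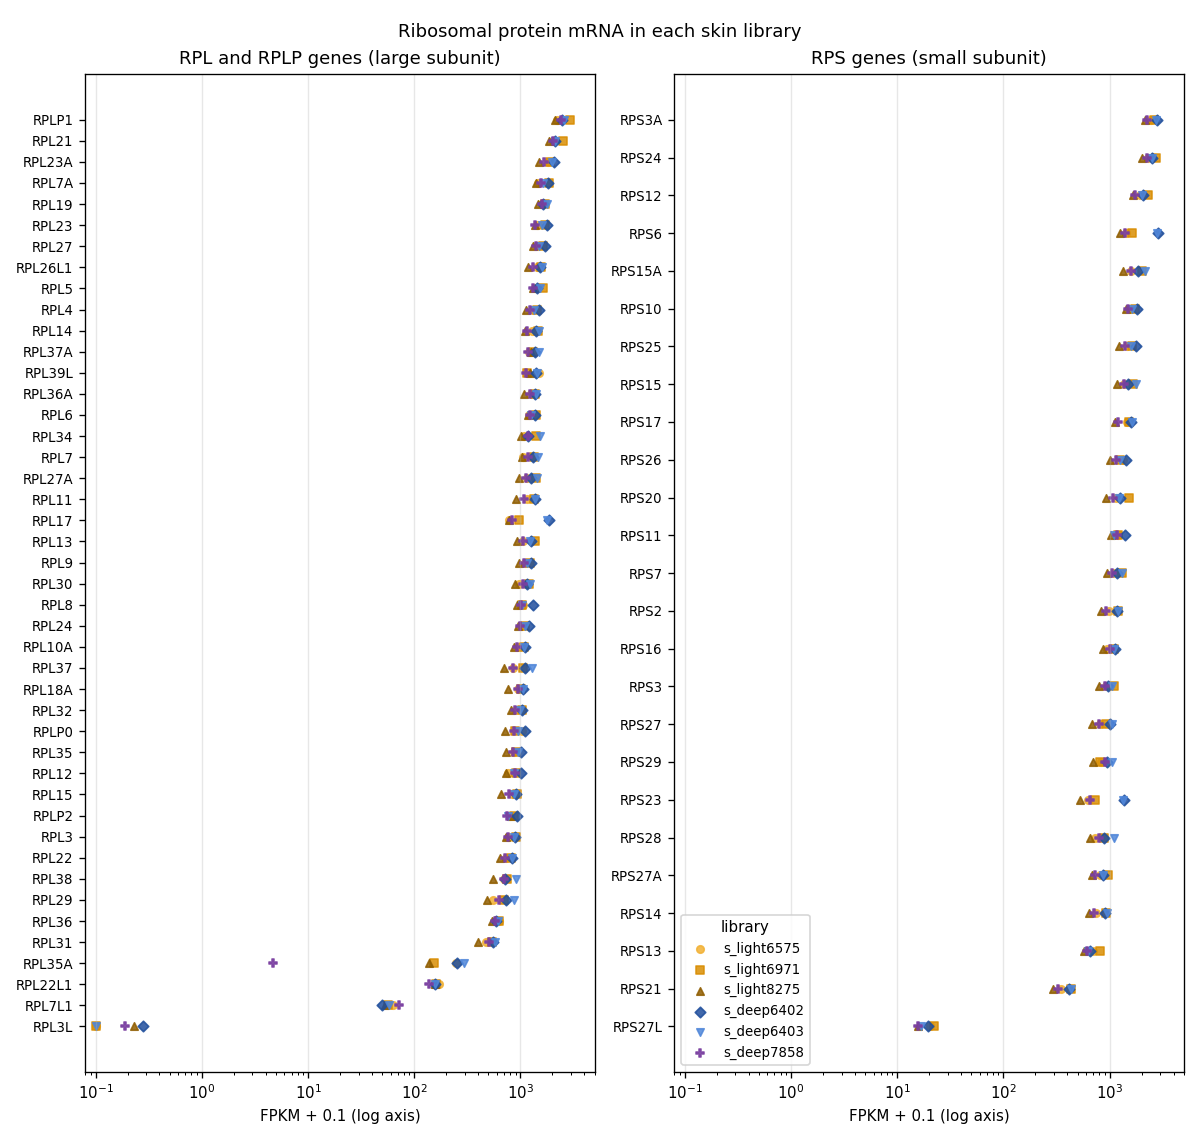
FPKM + 0.1 (log axis) of 69 of the 70 ribosomal protein genes, large subunit on the left and small subunit on the right, with a point for each of the 6 libraries (s_light in yellow and brown, s_deep in blue and violet). Most genes lie between 500 and 2000 FPKM, RPL35A in s_deep7858 stands at 4.57 FPKM, and RPS6, RPL17 and RPS23 are split, with s_deep6402 and s_deep6403 above the other 4 libraries.

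The highest member was RPS3A, a small-subunit protein near the mRNA exit, at 2465, 2626 and 2156 FPKM in the s_light libraries s_light6575, s_light6971 and s_light8275, and 2824, 2708 and 2252 FPKM in the s_deep libraries s_deep6402, s_deep6403 and s_deep7858. The groups overlapped. RPLP1, one of the acidic stalk proteins that recruit translation factors, followed with 2212, 2930 and 2131 FPKM in s_light, against 2450, 2588 and 2413 FPKM in s_deep. Its highest and lowest values were both in s_light. RPLP2, its partner in the stalk, averaged 830.0 ± 33.2 FPKM in s_light and 816 ± 103 FPKM in s_deep, and RPLP0, the base of the stalk, 876 ± 162 FPKM in s_light and 976 ± 111 FPKM in s_deep (SD, n = 3 each). Among the 10 highest were also RPS24, RPL21, RPS12, RPS6, RPL23A, RPS15A and RPL7A, with mean levels between 1625 and 2385 FPKM. RPS27A, which is made as a fusion with ubiquitin, had a mean of 824 FPKM.

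The 6 members below 500 FPKM were RPS21, RPL35A, RPL22L1, RPL7L1, RPS27L and RPL3L, of which 4 are paralogues that carry an L in their symbol. RPL3L replaces RPL3 in skeletal and cardiac muscle of mammals. It was listed at 0 in s_light6575, s_light6971 and s_deep6403 and reached at most 0.18 FPKM, in s_deep6402, while RPL3 averaged 816 FPKM. RPL3L was the only member under the mean of 0.1 FPKM needed for testing, so that 69 members were tested. RPS27L, a paralogue that is a p53 target in human cells, was read at 20.3, 21.9 and 15.7 FPKM in s_light and at 19.3, 16.8 and 15.7 FPKM in s_deep. This was between 1.58% and 2.50% of RPS27 in the same library. RPL7L1, which takes part in large-subunit assembly, was at between 3.81% and 6.09% of RPL7. RPL22L1, which can replace RPL22 in mouse, was read at 171, 161 and 158 FPKM in s_light and at 156, 158 and 137 FPKM in s_deep. Every s_light value of RPL22L1 lay above every s_deep value, although the nearest pair differed by less than 1 FPKM, and it stood at between 18.6% and 24.8% of RPL22.

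RPL39L and RPL26L1, also named as paralogues, were at the level of ordinary members. RPL39L was read at 1500, 1144 and 1220 FPKM in s_light, against 1387, 1423 and 1134 FPKM in s_deep. RPL26L1 averaged 1393 ± 190 FPKM in s_light and 1474 ± 150 FPKM in s_deep (SD, n = 3 each). The rule found no gene under the symbols RPL39 or RPL26, so a comparison with a parent gene was not made. A pair of genes outside the rule lay in the same band: RPS4Y1, for which RPS4X is listed as a synonym, at 1313 FPKM and RPSAP58, the only gene found with RPSA in its symbol, at 1212 FPKM. Ribosomal protein genes have many near-identical processed copies in mammalian genomes, and whether chicken has such copies was not examined. The reads were 50-base single ends, so the share of reads taken from or lost to any such copy is uncertain.

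Yellowness was compared next, with s_light set against s_deep. No ribosomal protein gene passed an absolute log2 fold change of 1 with an adjusted p of 0.05 or less (limma, Benjamini-Hochberg adjustment over all 15900 genes), where 0.044% of all tested genes did. Under a fold change of 2 with an adjusted p of 0.001 or less, 0 members and 0.0% of all tested genes passed. The lowest adjusted p of a member was 0.7585 (limma). An unadjusted p under 0.05 was found for 1 of the 69 members, RPS23, which was lower in s_light (1.45% of the members, where 6.45% of all tested genes had such a p and 2.96% had it and were lower), and for 0 members in the higher direction (3.49% of all tested genes). The groups did not overlap for RPL22L1, higher in s_light (5.36% of all tested genes had no overlap in this direction), and for RPS29, a zinc-binding small-subunit protein, lower in s_light (5.48% of all tested genes). With s_light6971 left out, 19 members were lower in s_light without overlap, where 12.9% of all tested genes were. With s_deep7858 left out 19 were, where 13.1% of all tested genes were. With any of the other libraries left out 1 was, where between 9.22% and 10.1% of all tested genes were. Members varied together by library, so the 19 are not separate results.

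RPS29 was read at 833, 813 and 693 FPKM in s_light and at 952, 1046 and 912 FPKM in s_deep. This gave a log2 fold change of -0.32, with a standard error of 0.15 (adjusted p = 0.816, limma). An exact two-sided permutation test of the FPKM gave p = 0.1, the smallest that 3 libraries against 3 allow. RPL29, a large-subunit protein, had the lowest log2 fold change of the autosomal members, -0.38 with a standard error of 0.20 (adjusted p = 0.868, limma), and 546, 707 and 479 FPKM in s_light against 738, 875 and 626 FPKM in s_deep. Its groups overlapped. The 64 tested autosomal members other than RPL35A had log2 fold changes between -0.38 and 0.15.

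Small differences nevertheless pointed mostly one way. The log2 fold change was below 0 for 60 of the 69 tested members (87.0%, against 53.8% of all tested genes), and its median was -0.10, against -0.02 over all tested genes. Members are not independent replicates, since a library that is low in one of them tended to be low in the others. In s_light8275, 60 of the 70 members had their lowest value, and s_deep6402, s_deep6403 and s_light6971 held the highest value of 25, 24 and 17 members. Once s_deep6402 and s_deep6403 were left out, which leaves s_deep7858 alone against s_light, 20 of the 69 members were lower in s_light. With the W-linked genes as a covariate 21 were, with s_light8275 left out 40, and the medians were then 0.05, 0.05 and -0.01. The share below 0 and the median over all tested genes are not given for these settings. Whether the change is particular to the members is therefore not shown.

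**Figure D2:**
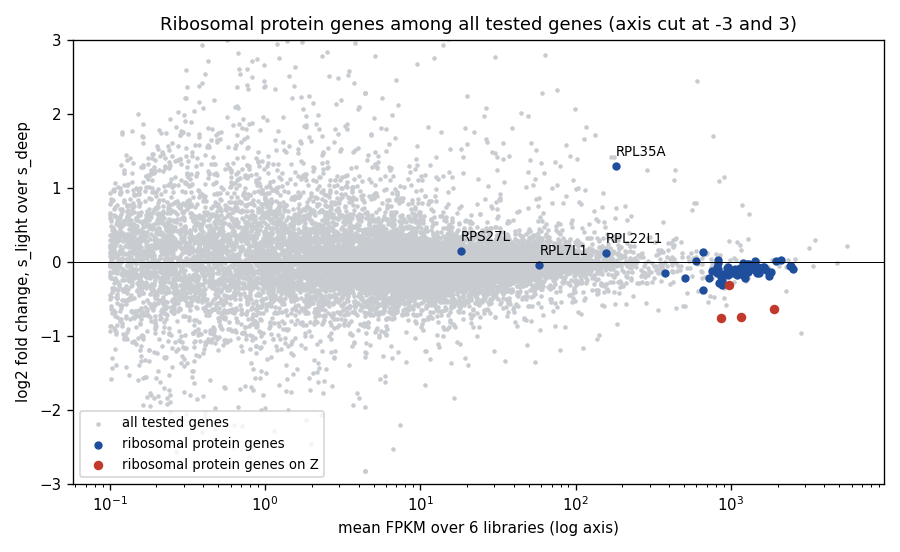
Log2 fold change (s_light over s_deep, on log2(FPKM + 0.1)) of all tested genes in grey against their mean FPKM (log axis), with ribosomal protein genes in blue and those of the Z chromosome in red; genes past -3 or 3 are not drawn. The median of the ribosomal protein genes was -0.10, RPL35A stands alone at 1.30, and RPS23, RPL17 and RPS6 are the 3 lowest.

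Summed over the 70 genes, ribosomal protein mRNA took 15.5%, 17.7% and 14.1% of the FPKM total in s_light6575, s_light6971 and s_light8275. In s_deep6402, s_deep6403 and s_deep7858 it took 18.1%, 18.1% and 15.6%. The mean was 15.8% ± 1.85 in s_light and 17.2% ± 1.46 in s_deep (SD, n = 3 each). The difference was below the SD within s_light and close to that within s_deep, and the groups overlapped. s_deep7858 was close to s_light6575 and below s_light6971. The large-subunit genes took 9.46% ± 1.01 in s_light and 10.2% ± 0.747 in s_deep, and the small-subunit genes 6.32% ± 0.835 in s_light and 7.004% ± 0.714 in s_deep. These are shares of FPKM, which count each mRNA per length, and not shares of reads, and in a skin piece fewer cells of a type and less RNA per cell cannot be told apart.

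**Figure D3:**
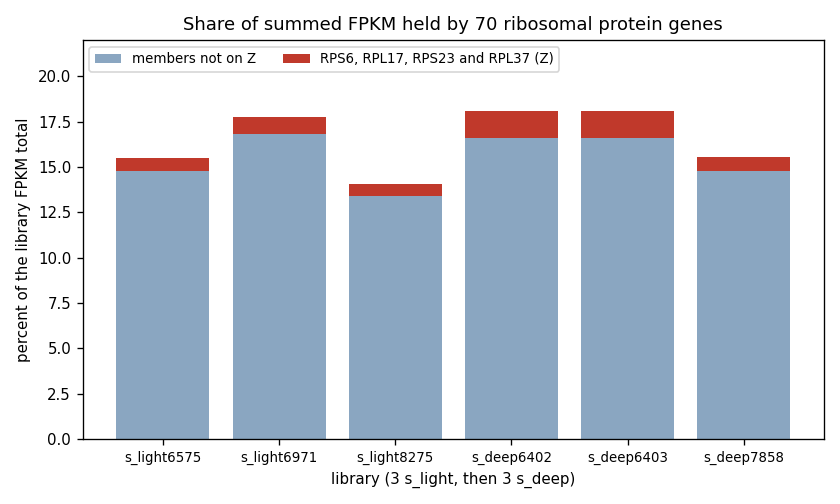
Percent of the library FPKM total held by the 70 ribosomal protein genes in each library (bars from 0), with the 4 genes of the Z chromosome in red on top of the other 66 in blue. s_light8275 is lowest with 14.1%, and s_deep6402 and s_deep6403 are highest with 18.1% each.

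Markers of other cell types and immediate-early genes also varied between the libraries. The summed level of 9 smooth muscle markers was 4993, 4304 and 8142 FPKM in s_light and 2392, 4218 and 2766 FPKM in s_deep. It was highest in s_light8275, where the ribosomal protein share was lowest, but s_deep7858 had both a lower marker sum and a lower share than s_deep6403. Of these markers, 6 had an unadjusted p under 0.05 (limma) and were higher in s_light, where 3.49% of all tested genes had such a p and were higher. The median log2 fold change over the 9 was 1.25. It was highest for DES at 3.65 (adjusted p = 0.0841, limma), while TPM2 had 0.27, LMOD1 0.09 and ACTA2 -0.32. The 4 skeletal muscle markers found summed to 829, 593 and 2136 FPKM in s_light and to 74.0, 236 and 107 FPKM in s_deep, nearly all of it from ACTA1. TNNC2 and TNNT3 had log2 fold changes of -1.17 and -0.23, and MYOG was listed at 0 in every library. The 6 fibroblast markers summed to between 2521 and 5079 FPKM in s_light and between 2657 and 3961 FPKM in s_deep, with the highest value in s_light6971. The 7 lymphocyte markers summed to between 79.5 and 141 FPKM in s_light and between 113 and 157 FPKM in s_deep, lowest in s_light8275. The 5 adipocyte markers summed to between 2199 and 2294 FPKM in s_light and between 1510 and 1820 FPKM in s_deep. Of these, 4 had a log2 fold change above 0, while ADIPOQ had -0.35. An unadjusted p under 0.05 (limma) was found for 3, all higher in s_light, where 3.49% of all tested genes had such a p. The 4 immediate-early genes found among 7 listed summed to between 401 and 768 FPKM in s_light and between 144 and 338 FPKM in s_deep. All 4 had a log2 fold change above 0. An unadjusted p under 0.05 (limma) was found for 2 of them, where 3.49% of all tested genes had such a p and were higher. The 4 endothelial markers summed to 339, 454 and 367 FPKM in s_light and to 515, 516 and 378 FPKM in s_deep, where s_deep6402 and s_deep6403 were highest, as in the ribosomal protein share. Summed over each list, erythroid markers stayed at or below 54.9 FPKM and melanocyte markers at or below 5.52 FPKM in every library. The part of cell composition in the ribosomal protein shares was not tested.

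The spread of single members from bird to bird was small beside that of all tested genes. The SD of log2(FPKM + 0.1) over the 6 libraries had a median of 0.18 over the tested members, against 0.28 over all tested genes and 0.21 over the 620 genes that averaged 100 FPKM or more. It was smaller in related families of lower level, with a median of 0.15 over mitochondrial ribosomal proteins, 0.15 over ribosome biogenesis genes and 0.14 over translation factors. When the median deviation of all members was subtracted in each library, the median SD was 0.09. The subtracted median came from the members themselves, and other families were not treated so. Whether the fall in SD is particular to this family is therefore not shown. RPL22 followed the family most closely, with an SD of 0.01 after that subtraction. An SD above 0.2 was left for only 5 members, which were RPL35A (2.22), RPL17 (0.48), RPS23 (0.47), RPS6 (0.41) and RPL7L1 (0.27). RPL36 had the smallest SD before subtraction, 0.09, with levels between 537 and 632 FPKM.

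RPS6, RPL17, RPS23 and RPL37 were the 4 members placed on the Z chromosome, of which male birds carry a pair and females a single copy. RPS6, the small-subunit protein phosphorylated by S6 kinases, was read at 1441, 1631 and 1264 FPKM in s_light and at 2868, 2771 and 1384 FPKM in s_deep. The high pair was s_deep6402 and s_deep6403, and s_deep7858 lay inside the range of s_light. RPL17, at the exit of the peptide tunnel, was read at 785, 977 and 774 FPKM in s_light and at 1853, 1776 and 838 FPKM in s_deep. RPS23, at the decoding centre, was read at 625, 724 and 529.9 FPKM in s_light and at 1359, 1331 and 649 FPKM in s_deep. Both showed the pattern of RPS6. RPL37, a small zinc-binding protein of the large subunit, was read at 842, 1053 and 703 FPKM in s_light and at 1102, 1287 and 844 FPKM in s_deep, and s_light6971 was nearer to the upper pair.

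Between yellowness groups the log2 fold change was -0.63 for RPS6 (standard error 0.32), -0.74 for RPL17 (standard error 0.32), -0.76 for RPS23 (standard error 0.31) and -0.31 for RPL37 (standard error 0.23). Adjusted p-values were 0.834, 0.782, 0.7585 and 0.948 (limma), and exact two-sided permutation tests gave p = 0.3 for RPS6 and 0.2 for each of the others. With s_deep7858 left out, the fold changes were -0.97, -1.11, -1.11 and -0.48, with adjusted p-values of 0.229, 0.129, 0.1235 and 0.671 (limma). With the W-linked genes as a covariate they were 0.09, 0.04, -0.03 and 0.03 (adjusted p between 0.987 and 0.995, limma). In this design the split in W-linked genes and the yellowness of s_deep6402 and s_deep6403 cannot be told apart, except through s_deep7858.

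The Z-linked members were then set against the rest of the family within each library, which leaves out the differences that all members share. Relative to the median of the 66 other members, RPS6 stood at 2.33 and 2.28 in s_deep6402 and s_deep6403, against values between 1.31 and 1.37 in the other 4 libraries. RPL17 stood at 1.51 and 1.46 in s_deep6402 and s_deep6403, against 0.744 to 0.829 in the others, and RPS23 at 1.11 and 1.095, against 0.567 to 0.616. For these 3 genes the pair of libraries lay far outside the narrow range of the other 4. For RPL37 the ratio was 0.897 and 1.06 in s_deep6402 and s_deep6403, against 0.753 to 0.869 in the others, so that the gap was small. These ratios are a description of libraries already set apart by their W-linked genes, and no test was made.

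**Figure D4:**
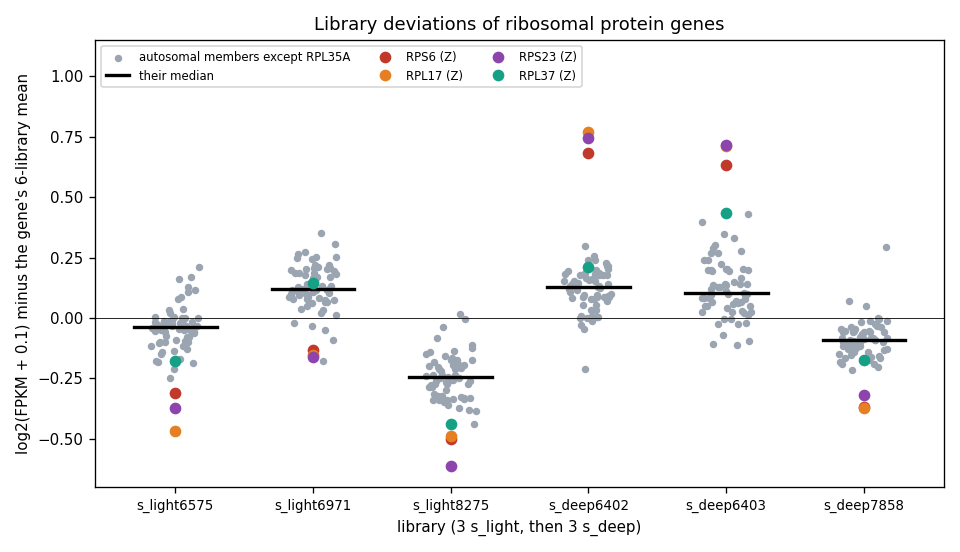
Deviation of each member's log2(FPKM + 0.1) from its own mean over the 6 libraries, with autosomal members except RPL35A in grey, their median as a black bar, and the 4 members on Z in colour. RPS6, RPL17 and RPS23 lie above the autosomal genes in s_deep6402 and s_deep6403 and below the autosomal median in the other 4 libraries, while RPL37 stays nearer to them.

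The difference in log2(FPKM + 0.1) between s_deep6402 and s_deep6403 and the other 4 libraries was 1.11 for RPL17, 1.098 for RPS23, 0.99 for RPS6 and 0.48 for RPL37. Over the 251 genes of the Z chromosome that averaged 10 FPKM or more its median was 0.57, with quartiles of 0.30 and 0.80, and over 6503 autosomal genes at that level it was 0.01. Of those Z genes, 6 had a larger difference than RPL17, 8 than RPS23, 25 than RPS6 and 149 than RPL37. The autosomal members other than RPL35A and RPL3L ranged from -0.18 (RPL7L1) to 0.46 (RPL29). Over the 66 members not on Z the median difference was 0.19, or 1.14-fold. Since members varied together by library, these are not separate results, and no test was made.

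RPL35A, a large-subunit protein whose loss causes Diamond-Blackfan anaemia in humans, gave the widest spread of the family. It was read at 249, 153 and 136 FPKM in s_light and at 253, 294 and 4.57 FPKM in s_deep, the last in s_deep7858. That value was 29.8 times below the lowest of the other 5 libraries, which themselves differed by up to 2.16 times. Without s_deep7858 the sign of its log2 fold change turned: it was 1.30 with all libraries with a standard error of 1.49 (adjusted p = 0.988, limma) and -0.66 without s_deep7858 (adjusted p = 0.590, limma). With the W-linked genes as a covariate, where the comparison leans on s_deep7858, it was 5.48 (adjusted p = 0.0504, limma). The median over all members in s_deep7858 was 1048 FPKM, against 929.8 to 1249 FPKM in the other libraries.

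No other gene among those searched showed a drop of this size. Among the genes that were at or above 50 FPKM in the other 5 libraries, which numbered between 1097 and 1122 depending on the library left out, no other gene in any library was more than 10 times below the lowest of the rest. The cutoffs were chosen after the value of RPL35A was seen. With a drop of 5 times and a floor of 20 FPKM, 2 further genes were found, TPPP3 in s_deep6402 and a gene without a symbol in s_light6971. The 4 measured genes on either side of RPL35A on chromosome 9 did not share the drop: their level in s_deep7858 was between 0.875 and 1.30 times the median of the other libraries, and none was lowest there. IQCG, the next gene on one side, overlaps RPL35A in the RefSeq table and was read at no more than 0.66 FPKM.

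**Figure D5:**
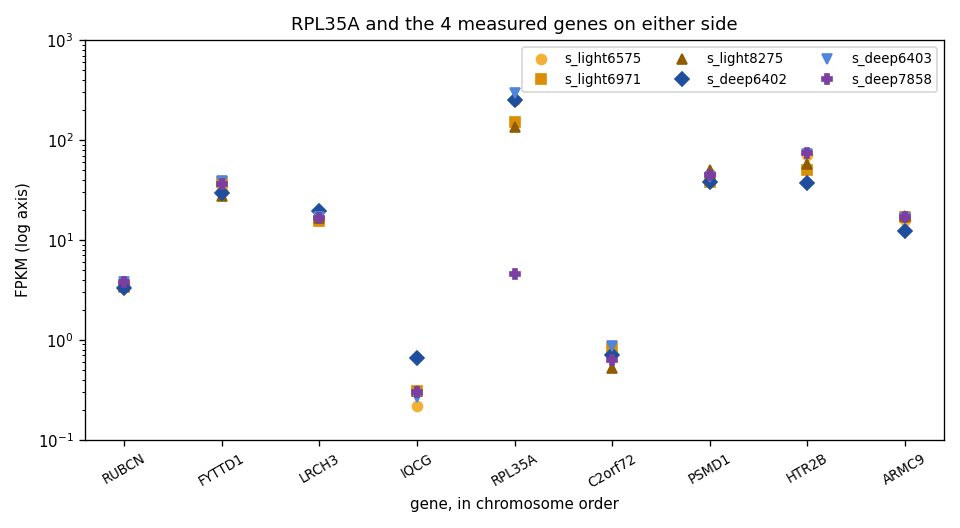
FPKM (log axis) of RPL35A and the 4 measured genes on either side of it on chromosome 9, in chromosome order, with a point for each of the 6 libraries. RPL35A is at 4.57 FPKM in s_deep7858 and at 136 to 294 FPKM in the other libraries, while none of the 8 neighbours is lowest in s_deep7858.

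Genes that work with the ribosome were also compared, and none passed the threshold. Of 20 listed genes for translation factors and other mRNAs with a pyrimidine start, 18 were found and tested. None had an unadjusted p under 0.05 (limma), where 6.45% of all tested genes did, and the median log2 fold change of the 18 was -0.02. EEF1A1, which delivers aminoacyl-tRNA, averaged 1992 ± 123 FPKM in s_light and 2073 ± 299 FPKM in s_deep, and TPT1, a growth-related protein, 2219.9 ± 239.8 FPKM in s_light and 2317 ± 212 FPKM in s_deep (SD, n = 3 each). RACK1, a scaffold on the small subunit, averaged 934 ± 69.6 FPKM in s_light and 952 ± 135 FPKM in s_deep. BTF3, part of the complex that meets new peptides at the ribosome and also on Z, had the lowest fold change of that list, -0.37. Of the 28 ribosome biogenesis genes found among 30 listed, 0 were higher and 1 was lower in s_light at an unadjusted p under 0.05 (limma). Over all tested genes 3.49% were higher and 2.96% lower at such a p, so the count is not read as a result about the list. The median log2 fold change of the 28 was -0.03. The 1 lower gene was RIOK2, a kinase of small-subunit maturation on Z, at -0.40 (adjusted p = 0.683, limma). For 15 genes of the control of ribosomal protein synthesis and 6 of ribosome quality control, 0 had such a p, and the medians were -0.03 and -0.07. The lowest of these was PELO, a ribosome rescue factor on Z, at -0.49 (adjusted p = 0.779, limma).

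Proteins of the mitochondrial ribosome, encoded by a separate family in the nucleus, served for comparison. The 70 genes of this family had a median level of 25.9 FPKM and a median log2 fold change of -0.01, and 41 of them were below 0. An unadjusted p under 0.05 (limma) was found for 3, all lower in s_light, where 2.96% of all tested genes had such a p and were lower. The count is not read as a result about this family. Of these 3, MRPL17 (-0.79) and MRPL50 (-0.71) are on Z and MRPL43 (-0.39) on chromosome 6 (adjusted p between 0.673 and 0.733, limma). MRPS27, also on Z, had a log2 fold change of 0.003. Over s_deep6402 and s_deep6403 against the other 4 libraries the median difference of this family, with its Z genes kept in, was 0.07. It was 0.19 in the cytosolic family with its Z genes left out. Whether the families differ was not tested.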

How the data were processed

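Poly(A) RNA of cloacal skin from 6 chickens was sequenced as single-end 50-base reads, 1 library per bird. The authors removed adaptors, low-quality reads and rRNA reads, aligned to Gallus_gallus-5.0 with TopHat per their methods, and deposited FPKM per NCBI Gene ID, rounded to 2 decimals. The submitters' processing notes instead name HISAT2 2.0.4, Bowtie2 2.2.5, RSEM 1.1.12 and DESeq2 1.4.5, and how reads shared between near-identical copies were assigned is not given in the sources used here. FPKM are shares of a library, so that a rise of other mRNAs lowers them, and no read counts were used, so counting error is unknown. Symbols and chromosomes came from the RefSeq table of GRCg7b, another build, which was used for the order and overlap of neighbouring genes but not for printed coordinates. It gave a symbol for 15296 of 18315 IDs, and 3019 had none.

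The 15900 genes that averaged 0.1 FPKM or more were tested with limma 3.58.1 (R 4.3.3) as log2(FPKM + 0.1), with trended moderation, Benjamini-Hochberg adjustment and no covariate. A positive fold change is higher in s_light. Fold changes on this scale understate low genes. Single genes also had a permutation test on FPKM, exact and two-sided, over 20 permutations, for which 0.1 is the smallest p. The model was tested on simulated data. Replicates are separate birds. The alternatives were pseudocounts of 1 and 0.01, other filters and scalings, no trend, a covariate of 5 W-linked genes (those of highest mean FPKM in the table, since too few of the symbols listed for it matched) and each library left out. After the data were seen, leaving out s_deep6402 and s_deep6403, leaving out the Z-linked members and other cutoffs for single low values were added. Named members were the 10 highest, the 5 lowest, the 5 largest and 5 smallest fold changes, those with an unadjusted p under 0.05, paralogues, stalk proteins, RPS27A, Z-linked members, and the largest and smallest SD. RPS21 and the genes outside the family were named after their values were seen. Members and lists were chosen with earlier results of these data known. The values of a few single genes are not reported here. Planned promoter and protein comparisons were not made. Figures used Python 3.11.15 with matplotlib 3.10.9.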

Additional observations from a re-analysis of the deposited data

How the results depend on the processing

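No paired analysis was possible because no wing number occurs in both groups. No member passed an adjusted p of 0.05 with an absolute log2 fold change of 1 under any alternative, while over all genes 7 did, 11 with a pseudocount of 1, 12 with median-of-ratios scaling, 0 under the W-linked covariate and between 0 and 69 with a library left out. With each library left out in turn, members with an unadjusted p under 0.05 numbered between 0 and 3, members lower in s_light between 40 and 65, members without overlap between 1 and 4 (higher, against 8.46% to 10.7% of all tested genes) and between 1 and 19 (lower, against 9.22% to 13.1%), the median log2 fold change lay between -0.20 and -0.01, and the log2 ratio of summed FPKM, -0.13 with all libraries, between -0.23 and -0.04. Members with an unadjusted p under 0.05 numbered 2 with TPM and 0 without an intensity trend. With all libraries and no alternative, 6.45% of all tested genes had such a p (limma). That share is not given for the alternatives or with a library left out, so these counts are not read as a result about the members. The share of all tested genes lower in s_light is likewise given only for all libraries without an alternative. Counts of members lower in s_light under other settings are therefore not read as a result about the members. With s_deep6402 and s_deep6403 left out, an alternative added after the data were seen, the log2 ratio of summed FPKM was 0.0505 and 20 members were lower in s_light. Under the W-linked covariate 21 were lower, and the log2 fold change turned to 0.0443 for RPL17, 0.0291 for RPL22, 0.0517 for RPL23A, 0.0859 for RPL26L1, 0.0649 for RPL3, 0.0265 for RPL37, 0.19 for RPL39L, 0.0166 for RPS15A, 0.0533 for RPS24, 0.0256 for RPS27, 0.16 for RPS27A, 0.10 for RPS3A and 0.0911 for RPS6. With quantile normalization it turned to -0.0327 for RPL36, 0.0547 for RPL39L, 0.0127 for RPL7A, 0.0192 for RPLP1, 0.0362 for RPS24 and 0.0018 for RPS27A, and with median-of-ratios scaling to 0.0075 for RPS27A. Members without overlap numbered 0 (higher) and 2 (lower) after quantile normalization. Before it, 5.36% (higher) and 5.48% (lower) of all tested genes had no overlap, and the shares after it are not given. The cause of these changes was not tested. Of the 30 named members, 11 changed sign when a library was left out, with log2 fold changes between -0.0975 and 0.1122 for RPL21, -0.1732 and 0.0249 for RPL26L1, -0.6554 and 2.3338 for RPL35A, -0.0309 and 0.0865 for RPL36, -0.1466 and 0.0484 for RPL39L, -0.1557 and 0.0977 for RPL7L1, -0.1936 and 0.0363 for RPLP1, -0.0243 and 0.1328 for RPLP2, -0.1094 and 0.135 for RPS12, -0.1695 and 0.0519 for RPS24, and -0.1307 and 0.12 for RPS27A. Read depth and counting error could not be assessed from FPKM.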
